A study of Mus musculus with 6 samples.

Results

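The cytosolic chaperonin CCT, also called TRiC, is built from 8 related subunits, encoded in the mouse by Tcp1, Cct2, Cct3, Cct4, Cct5, Cct6a, Cct7 and Cct8. Their transcripts were read from Affymetrix arrays of leukaemia cells sorted by the level of MYC protein. The members were fixed by gene symbol: every probe set whose only annotated symbol was one of the 8 was taken. This gave 25 of 34945 probe sets with a single symbol, and all 8 of 18193 genes were measured. No probe set with several symbols named a subunit.

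CCT forms a double ring, each ring holding 1 copy of every subunit around a cavity in which a client protein folds as ATP is used. Actin and tubulin are its best known clients, and several WD40 repeat proteins and cell cycle regulators also depend on it. Prefoldin hands nascent actin and tubulin to the ring, phosducin-like proteins act as its cochaperones, and the HSP70 and HSP90 systems work upstream and beside it. MYC is widely described as a driver of genes for protein synthesis, and growing T cells need CCT for their cytoskeleton and for division.

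The cells came from T-cell acute lymphoblastic leukaemia driven by Notch1-deltaE, an activated form of NOTCH1. The mice also carried MYC fused to GFP, so that green fluorescence follows MYC protein. Both groups carried the genotype Notch1[delta]E mycGFP on strain C57BL/6 and were CD25+ splenocytes, taken at an age of 12 weeks and 4 weeks after transplantation into congenic recipients. One group was MycGFP negative and the other MycGFP positive, with 3 arrays each, numbered 1 to 3. The design describes 3 leukaemias, and p-values reflect how these few sorted samples varied. Both groups are leukaemic, and normal T cells were not analysed here.

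All 6 arrays had a median intensity of 30.5 to 32.7. The T cell genes Cd3e, Thy1, Ptcra and Il2ra, the last encoding CD25, were bright in both groups, with mean intensities of 12441, 9014, 8402 and 8551 in negative cells and 10271, 8123, 7495 and 7578 in positive cells. Myc itself had intensities of 801, 1135 and 1303 on the negative arrays and 2628, 3390.5 and 2274 on the positive arrays. That is a 2.58-fold difference (limma adjusted p = 0.0329, lost without positive array 1, 2 or 3 or negative array 2, at 0.0913, 0.108, 0.0786 and 0.0952). Across all genes 840 were higher and 275 lower in positive cells at an adjusted p under 0.05, which is 4.62% and 1.51% of those tested. These calls, and every other call given here, end when positive array 2 is left out, where limma calls no gene, although an unadjusted p under 0.05 was reached by 2209 higher and 976 lower genes.

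All 8 CCT subunit transcripts had a higher mean in MycGFP positive cells, and for each the 3 positive arrays lay above the 3 negative ones. Such a separation was found in 17.0% of all genes, with the reverse in 11.2%, and in 23.9% of the 1817 genes whose mean log2 intensity lay in the range of the 8 subunits. Tcp1, Cct6a, Cct8 and Cct5 rose at an adjusted p under 0.05, which is 4 of 8 where 4.62% of all genes and 5.17% of the genes in that intensity range rose. Cct3, Cct7, Cct4 and Cct2 did not pass, and none was lower. The median log2 difference of the 8 was 0.78, against 0.01 over all genes, and the single values ran from 0.22 to 1.14. Without adjustment 7 of the 8 had a p under 0.05, Cct2 being the exception, as had 14.7% of all genes on the higher and 7.35% on the lower side.

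Tcp1, which encodes the alpha subunit after which the complex was first named, had intensities of 2300, 2436 and 2121 on negative arrays 1 to 3 and of 5209.7, 4647 and 5258 on positive arrays 1 to 3. The negative arrays had a mean of 2286 ± 158 and the positive ones of 5038 ± 340 (SD, n = 3), and the lowest positive array was far above the highest negative one. It rose 2.20-fold (95% interval 1.78 to 2.73), a log2 difference of 1.14 with an SE of 0.13 (limma adjusted p = 0.0146). Cct6a, the zeta subunit, had intensities of 2682, 1999 and 2243 on the negative and 5557, 4208 and 5022 on the positive arrays. Array 2 was the dimmest of its group on both sides, and the groups stayed well apart. Cct6a rose 2.14-fold (95% interval 1.59 to 2.87, limma adjusted p = 0.0267).

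Cct8, the theta subunit, stood at 2194, 2926 and 2493 on the negative arrays and at 4367, 4989 and 5138 on the positive arrays. Here negative array 2 was the brightest of its group, the reverse of Cct6a. The rise was 1.91-fold (95% interval 1.47 to 2.49, limma adjusted p = 0.0299). Cct5, the epsilon subunit, measured by 1 probe set, had intensities of 1297, 1198 and 1538 on the negative and 2609, 2124 and 2375 on the positive arrays. It rose 1.77-fold (95% interval 1.36 to 2.29, limma adjusted p = 0.0382). The Cct5 call ended when each array was centred on its median (adjusted p = 0.0758) or when arrays were quantile normalised (0.0518), while the other 3 passed in both settings.

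Cct3, the gamma subunit, had intensities of 3317, 1983 and 3438 on the negative arrays and 5079, 4695 and 4471 on the positive arrays. Its mean went from 2913 ± 807 to 4748 ± 308 (SD, n = 3), and the wide negative spread came from array 2. It was higher by 0.75 on the log2 scale (SE 0.24, limma adjusted p = 0.131), and by 0.49 without negative array 2. Cct7, the eta subunit, showed the same layout, at 3955, 2317 and 3527 on the negative and 5226, 4309.5 and 4638 on the positive arrays. Its log2 difference of 0.56 (SE 0.23) had a limma adjusted p of 0.218, and it was 0.33 without negative array 2.

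Cct4, the delta subunit, had intensities of 3976, 4260.3 and 4757 on the negative arrays and 6157, 5986 and 6321 on the positive arrays, with little spread in either group. Its mean was 1.42-fold higher (95% interval 1.15 to 1.76), short of the threshold at a limma adjusted p of 0.0727. Cct2, the beta subunit, differed least, at 7362, 8949.6 and 7683 on the negative and 9172, 8999 and 9652 on the positive arrays. Negative array 2 almost reached positive array 2. The fold was 1.16 (95% interval 0.932 to 1.45, limma adjusted p = 0.416), so an unchanged level and a rise of up to 1.45-fold both lie inside the interval.

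**Figure D1:**
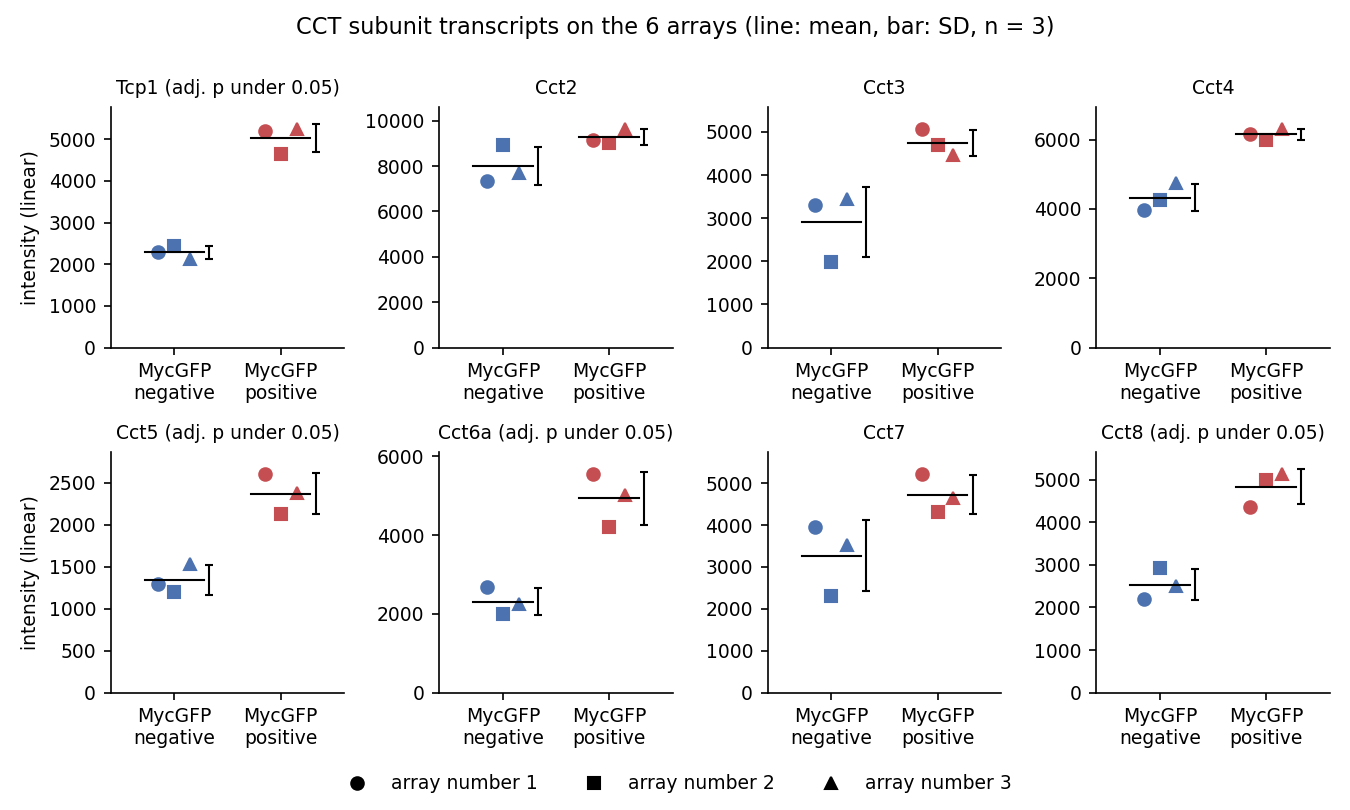
Intensity on a linear scale from 0 (y axis) of the probe set that stands for each CCT gene, on 3 MycGFP negative (blue) and 3 MycGFP positive (red) arrays. Marker shapes give the array number, lines the group mean and bars the SD. In all 8 panels the red points lie above the blue ones. The fold between group means was largest for Tcp1 (2286 to 5038) and smallest for Cct2 (7998 to 9274).

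The count of subunits that passed depended on single arrays. Without positive array 2 or positive array 3 none of the 8 passed in limma, although in either case 6 had an unadjusted p under 0.05, as had 2209 and 2344 of all 18193 genes on the higher side. Without negative array 2 or positive array 1 Tcp1 alone passed, without negative array 1 Tcp1 and Cct6a, and without negative array 3 Tcp1 and Cct5. The differences themselves moved less, from 1.09 to 1.198 for Tcp1, 0.998 to 1.21 for Cct6a, 0.84 to 1.04 for Cct8 and 0.74 to 0.92 for Cct5.

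The subunits did not move in step from array to array. Relative to each gene's own mean over the 6 arrays, negative array 2 lay at -0.89 for Cct3, -0.74 for Cct6a and Cct7 and -0.57 for Cct5 on the log2 scale, but at 0.06 for Cct2 and -0.25 for Cct8. Negative array 1 was the lowest of all 6 for Cct8, at -0.67, while it was the highest of the negative arrays for Cct7, at 0.03. On the positive side array 1 was the highest for Cct3, Cct5, Cct6a and Cct7, and array 2 the lowest for Tcp1, Cct2, Cct4, Cct5, Cct6a and Cct7. Over arrays of the same number the positive minus negative difference of Cct2 was 0.32, 0.01 and 0.33 for numbers 1, 2 and 3, and that of Cct3 was 0.61, 1.24 and 0.38. Cct6a was steadier than both, at 1.05, 1.07 and 1.16, while Tcp1 was at 1.18, 0.93 and 1.31.

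**Figure D2:**
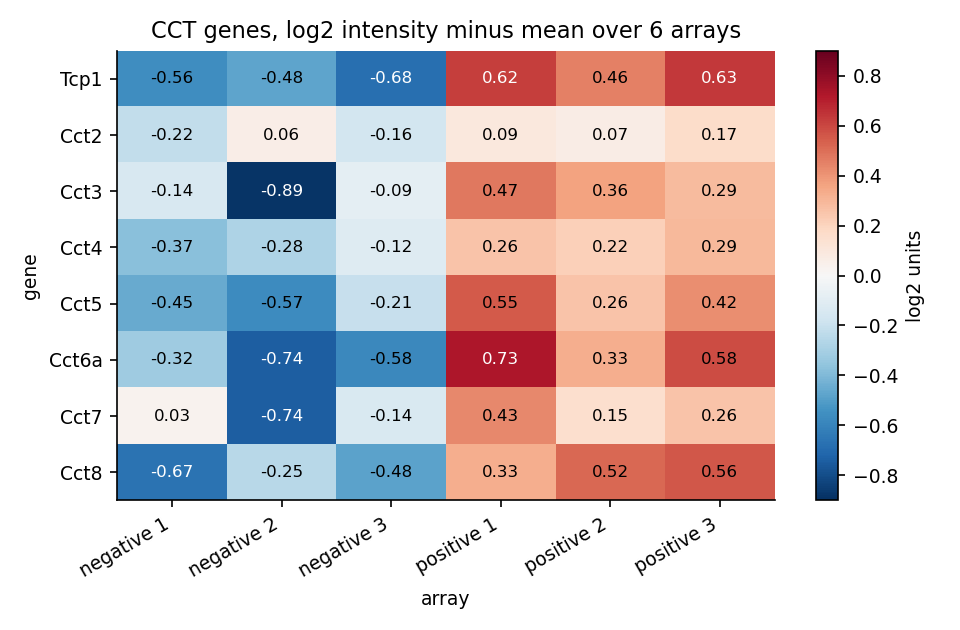
Log2 intensity of each CCT gene (rows) on each array (columns) minus that gene's mean over the 6 arrays, in log2 units (colour and printed value). All positive arrays are above 0, from 0.07 to 0.73, and among the negative arrays only Cct2 on array 2 (0.06) and Cct7 on array 1 (0.03) are above 0.

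Setting each gene against the mean of all 8 on the same array shows how unequal the differences were. Relative to that mean, Tcp1 went from -0.39, -0.16 and -0.54 on the negative arrays to 0.02, -0.01 and 0.06 on the positive arrays. Cct6a went from -0.17, -0.44 and -0.46 to 0.11, -0.15 and -0.001. Both were higher on every positive array than on any negative one. Cct2 moved the other way, from 1.29, 1.72 and 1.32 to 0.83, 0.95 and 0.94, as did Cct4, from 0.40, 0.65 and 0.63 to 0.26, 0.36 and 0.33. For Cct3, Cct5, Cct7 and Cct8 the groups overlapped. By construction the shifts of the 8 genes cancel, so some must fall where others rise more. Cct2 and Cct4 fell only in this relative sense, since both had a higher mean in positive cells. These are unequal changes of log2 signal between arrays and not ratios of transcripts, since probe sets differ in brightness. Apart from Cct5, at a negative mean of 1344, the brighter a gene was on the negative arrays the less it differed. That order ran from Tcp1 at 2286 to Cct2 at 7998. The negative level is also subtracted in each difference, so part of such an inverse order arises by construction. The part of probe set brightness in the unequal shifts was not tested. An exact permutation test of 3 against 3 arrays cannot give a two-sided p below 0.1, so the 8 shifts are given without a test.

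Other probe sets of the same genes were read in a second fit across all 34945 probe sets with a single symbol, of which 4.76% rose. Of the 25 CCT probe sets 7 rose and none fell, 24 had a difference above 0, and in 19 the groups did not overlap, where 16.6% of all probe sets showed that. The 3 Cct2 probe sets gave log2 differences of 0.218, 0.219 and 0.224, so the small difference of Cct2 did not hang on 1 of them. Its separation was not shared by all: for 1433535_x_at the groups overlapped, at 8679 on negative array 2 and 8645 on positive array 2. Both Cct6a probe sets rose, by 1.096 and 1.17 (limma adjusted p = 0.0253 and 0.0162).

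Cct3 and Cct4 had 7 probe sets each, and these varied. Among those of Cct3 the 4 brightest gave differences of 0.75, 0.84, 0.72 and 1.099. The last, 1449645_s_at, had intensities of 551, 644 and 775 on the negative and 1403, 1335 and 1443 on the positive arrays and passed (limma adjusted p = 0.0207), but not without negative array 2 or positive array 1 or 3 (0.0718, 0.0648 and 0.0767). Negative array 2 was not its lowest array, unlike for the other 3, and the suffix marks probes that may also match other transcripts. A dimmer Cct3 probe set, 1439679_at, went the other way by -0.42 with overlapping groups (adjusted p = 0.656). For Cct4 the 3 brightest gave 0.51, 0.48 and 0.44, and none passed. The probe set 1430034_at, at 39.2, 110 and 103 on the negative and 324, 333 and 289 on the positive arrays, rose by 2.05 (limma adjusted p = 0.0392), more than any other CCT probe set and from a level close to the array median on negative array 1. That call ended with quantile normalisation (0.0573), and without negative array 2 or 3 or positive array 1 or 3 (0.0735, 0.0547, 0.109 and 0.107).

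The 2 Cct7 probe sets gave 0.56 and 0.85 (limma adjusted p = 0.214 and 0.0894), and negative array 2 was the lowest array for both. The second Cct8 probe set, 1436973_at, lay at 4.65 to 5.77 on all 6 arrays, far under the array medians, and its difference of 0.08 says little. In all, 3 CCT probe sets were under the median on every array and 21 were above it on every array.

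**Figure D3:**
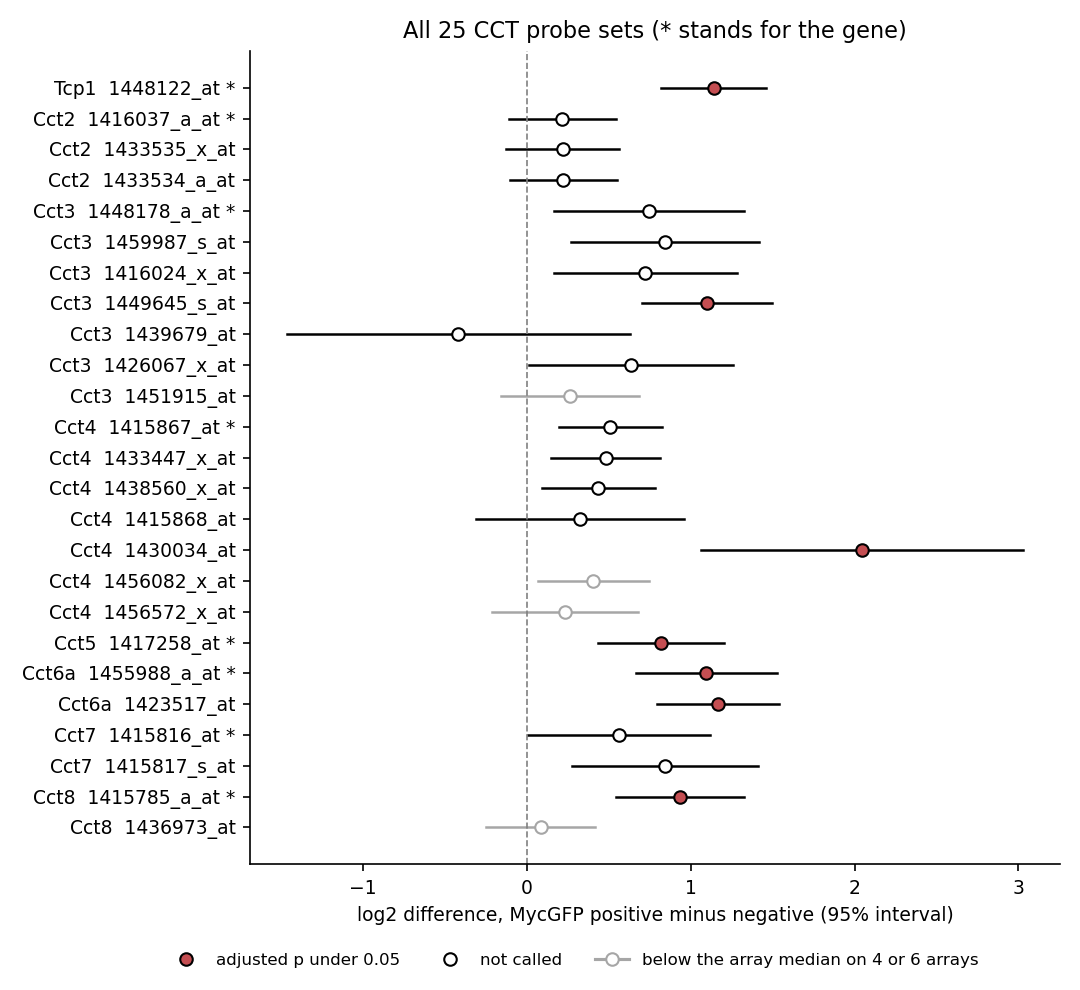
Log2 difference, MycGFP positive minus negative (x axis), with its 95% interval from limma, for each of the 25 CCT probe sets (y axis), those standing for a gene marked with an asterisk. Red points passed at an adjusted p under 0.05, and grey marks dim probe sets. The Cct2 probe sets sit together near 0.22, those of Cct6a near 1.1, and single Cct3 and Cct4 probe sets stand apart at -0.42 and 2.05.

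The stretches before the starts of the subunit genes were read from RefSeq (GRCm38.p6), which held 9 windows for 7 of the 8 genes. Cct4 was not among them. For 6 of the 7 another gene starts on the opposite strand within 1000 bases upstream, where 12.2% of 27025 genes in that table have such a neighbour. The distances were 103 bases for Cct6a and Psph, 136 for Cct3 and Tsacc, 203 for Cct7 and Pradc1, 204 for Cct8 and B130034C11Rik, 238 for Tcp1 and Mrpl18, and 270 for Cct5 and Atpsckmt. Cct2 had none. A link between such neighbours and the differences of the subunit genes was not tested. The bases shared between the opposed starts are shown for Tcp1 and Cct6a, the subunits with the largest rises, and for Cct3. The Cct3 neighbour starts nearly as close as that of Cct6a. For Cct2, which had no such neighbour, the 250 bases before its first start are shown. Each reads 5′ to 3′ on the strand of the CCT gene and ends at the base before its start. Capitals mark CCAAT and GGCGGG, on either strand.

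Tcp1, chr17:12916092-12916328, plus strand: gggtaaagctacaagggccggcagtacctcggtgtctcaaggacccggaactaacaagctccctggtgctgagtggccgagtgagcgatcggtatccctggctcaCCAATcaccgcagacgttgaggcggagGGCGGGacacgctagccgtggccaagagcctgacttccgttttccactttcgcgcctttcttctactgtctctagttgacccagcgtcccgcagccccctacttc
Cct6a, chr5:129787254-129787355, plus strand: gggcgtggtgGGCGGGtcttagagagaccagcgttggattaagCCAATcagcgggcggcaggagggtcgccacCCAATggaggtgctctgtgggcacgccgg
Cct3, chr3:88297000-88297134, plus strand: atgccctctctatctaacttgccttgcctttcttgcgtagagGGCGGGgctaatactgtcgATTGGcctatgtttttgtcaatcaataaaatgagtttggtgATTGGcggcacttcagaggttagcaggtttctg
Cct2, chr10:117063853-117064102, minus strand: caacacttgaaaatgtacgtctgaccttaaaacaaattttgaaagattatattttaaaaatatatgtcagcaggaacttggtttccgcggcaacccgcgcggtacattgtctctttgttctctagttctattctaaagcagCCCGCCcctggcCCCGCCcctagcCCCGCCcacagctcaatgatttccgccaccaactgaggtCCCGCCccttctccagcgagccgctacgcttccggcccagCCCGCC

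In the 250 bases before each start, 8 short motifs were searched on both strands. CCAAT, the box bound by NF-Y, was found for Tcp1, Cct3, Cct6a and Cct7. It was in 4 of the 9 windows and in 33.8% of all 32851 windows. GGCGGG, a core of GC boxes, was found for 6 of the 7 genes, all but Cct5, with 5 matches before the first Cct2 start. It was in 6 of the 9 windows and in 32.5% of all windows. CACGTG, the E-box that MYC and MAX bind best, was in none of the 9 windows and in 6.02% of all. GAANNTTC, a core of the heat shock element, was found once, before the second Cct2 start, and in 6.69% of all windows. CCGGAAG, a core of ETS sites, was found for Cct2 and Cct8, in 2 of the 9 windows and in 6.91% of all. The NRF1 palindrome, AAGATGGC, a core of YY1 sites, and TATAAA were in none of the 9 windows and in 0.782%, 1.56% and 12.4% of all. A match is a run of letters and not a measured site, and the search covers these windows alone.

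The 6 opposed neighbours were measured on the same arrays, and they are named for their position, outside the rule for named genes. Pradc1, beside Cct7, had intensities of 149, 152 and 105 on the negative and 541, 379 and 380.4 on the positive arrays, and it rose 3.21-fold (limma adjusted p = 0.0182). Without negative array 2 or positive array 1 or 3 its call was lost (0.0574, 0.0561 and 0.0616). Mrpl18, a mitochondrial ribosomal protein gene beside Tcp1, stood at 1425, 1363 and 1065 on the negative and 2909, 1992 and 2407 on the positive arrays. Its fold of 1.89 fell short of the threshold (limma adjusted p = 0.0517), and it passed with averaged probe sets or with dim genes removed (0.0406 and 0.0444). Psph, the last enzyme of serine synthesis, beside Cct6a, had a difference of 0.58 with overlapping groups (adjusted p = 0.250). Tsacc, beside Cct3, was at 13.6 to 98.8 on the negative and 128 to 192 on the positive arrays (adjusted p = 0.216). Atpsckmt, beside Cct5, had a difference of -0.08 and B130034C11Rik, beside Cct8, one of 0.69, and both groups overlapped (adjusted p = 0.951 and 0.286). So 1 of 6 neighbours passed, where 4.62% of all genes rose.

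Other transcripts that differed between the groups are set beside the CCT genes as measured values. The mean CCT profile, in log2 units around each gene's own mean, lay at -0.34, -0.49 and -0.31 on negative arrays 1 to 3 and at 0.44, 0.29 and 0.40 on positive arrays 1 to 3. For Myc the values were -1.08, -0.58 and -0.38, then 0.63, 0.997 and 0.42. A list of 15 measured cell cycle genes lay at 0.09, -1.20 and -1.84, then 1.14, 0.94 and 0.86. Negative arrays 1 and 3 thus differed by far more in the cell cycle list than in the CCT genes. On the positive side array 2 had the most Myc signal and the lowest CCT mean. Of the 15 cell cycle genes 5 rose, where 4.62% of all genes did, and their median log2 difference was 2.21. For 13 of them the positive arrays all lay above the negative ones, where 17.0% of all genes did. The summed intensity of all 15 was 12106 to 35421 on the negative and 50132 to 59366 on the positive arrays. The part of the cell cycle genes in the CCT difference was not tested. In bulk RNA a larger share of cells with much CCT transcript and more transcript per cell cannot be told apart.

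Markers of other cells were followed as well. Summed over 9 myeloid genes, intensities were 1033, 10582 and 253 on negative arrays 1 to 3 and 741, 2698 and 178 on positive arrays 1 to 3, in both groups highest on array 2. Of these genes 3 lay under the median on every array. Negative array 2 was the lowest negative array for Cct3, Cct5, Cct6a and Cct7, but the highest for Tcp1, Cct2 and Cct8. The part of the myeloid signal in these levels was not tested. The summed level was 83 to 402 and 142 to 370 for 5 erythroid genes, 231 to 818 and 136 to 505 for 6 B cell genes, and 777 to 1277 and 620 to 1008 for 7 stromal and endothelial genes, in negative and positive cells. Of these 1, 1 and 3 genes lay under the median on every array. The 4 NK cell genes summed to 4781 to 5265 and 5661 to 7875, with 2 under the median on every array. Gzma made up most of that sum, with means of 4751 in negative and 6517 in positive cells. Klrd1 went the other way, from 224 to 45.6 with groups that did not overlap (limma adjusted p = 0.0960). No marker on these lists or on that of 8 T cell genes passed the test, while the T cell sum was 62318 to 63109 in negative and 50549 to 56386 in positive cells. For 3 of the T cell genes the positive arrays all lay below the negative ones and for 0 above, where 11.2% and 17.0% of all genes did. Cd247 had the largest T cell difference, at -1.16 (limma adjusted p = 0.0625). Pecam1, of the stromal and endothelial list, had one of -0.97 (0.0904), while Cdh5 and Kdr of that list lay under the median on every array.

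**Figure D4:**
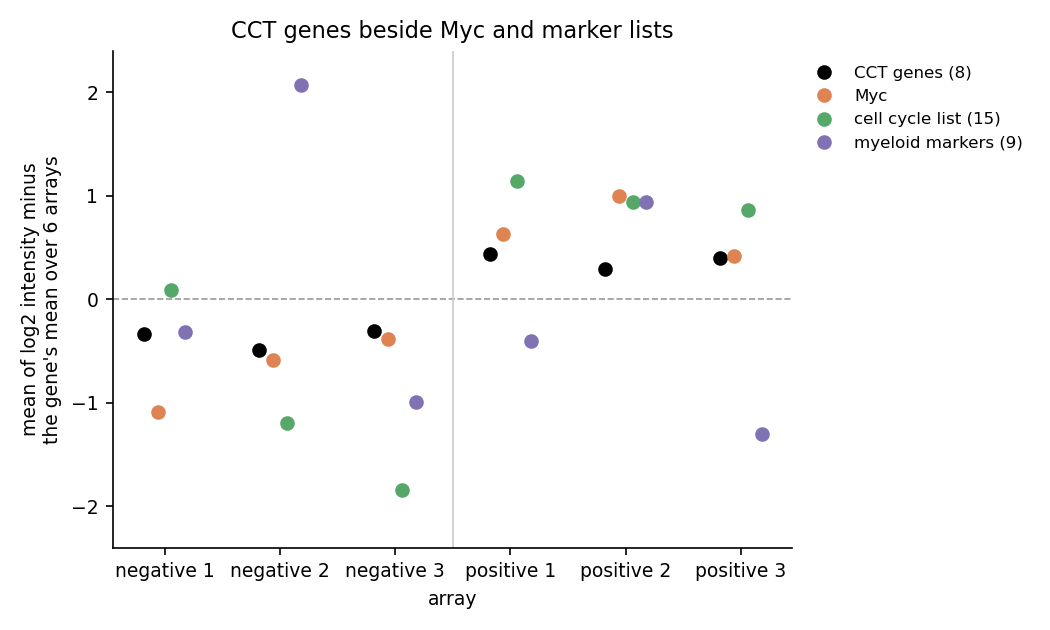
Mean over genes of log2 intensity minus the gene's mean over 6 arrays (y axis) for the 8 CCT genes, Myc, 15 cell cycle genes and 9 myeloid markers on each array (x axis). The CCT genes stay between -0.49 and -0.31 on the negative arrays, where the cell cycle list runs from -1.84 to 0.09, and the myeloid markers peak on negative array 2 at 2.07.

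The partners and clients of CCT were read out of the same fit as 9 lists with 100 measured genes, of which 13 rose and none fell, where 4.62% of all genes rose and 1.51% fell. None of the 6 prefoldin subunit genes passed, with an unadjusted p under 0.05 for 3, all higher, where 14.7% of all genes were. Their median log2 difference was 0.52. Pfdn1, at 957, 378 and 789 on the negative and 1420.2, 1583 and 1259 on the positive arrays, had a difference of 1.104 (limma adjusted p = 0.134). Pfdn4 and Pfdn6 had differences of 0.97 and 0.78 (0.199 and 0.120), with groups that did not overlap. Pfdn2, Pfdn5 and Vbp1, which encodes the third subunit, had differences of 0.26, 0.09 and 0.05 with overlapping groups, and on centred arrays the last 2 were at -0.06 and -0.10. With the array number as a block Pfdn6 passed (adjusted p = 0.0464).

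No CCT cochaperone gene passed among 4, nor at an unadjusted p under 0.05. The phosducin-like genes Pdcl, Pdcl2 and Pdcl3 had log2 differences of -0.22, -0.10 and 0.45 and Txndc9 one of 0.09, and on centred arrays Txndc9 was at -0.06. Pdcl2 lay at 4.60 to 5.61 on the negative arrays, near the lowest signal on the array. The list's median of -0.01 was close to that of all genes.

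Among other chaperonins and their relatives 2 of 6 rose. Hspd1, the HSP60 subunit of the mitochondrial chaperonin, had intensities of 848, 1342 and 1073 on the negative and 3249, 3098 and 3435 on the positive arrays. It rose 3.05-fold (95% interval 2.21 to 4.21, limma adjusted p = 0.0152), so its estimate lay above those of all 8 CCT genes. Without positive array 1 or 3 its call was lost (0.0574 and 0.0616). Hspe1, its HSP10 lid, was at 3107, 2970.02 and 4755 and then 5668, 6011 and 6264, a difference of 0.76 (limma adjusted p = 0.0924). Bbs12, a chaperonin-like gene of ciliary complex assembly, rose 3.64-fold (limma adjusted p = 0.0315) from a mean of 27.6, under the array medians, and lost its call without any 1 of the arrays except negative array 1. Its relatives Bbs10 and Mkks had differences of 0.71 and 0.40 (0.0804 and 0.495). Cct6b, the testis form of the zeta subunit, lay at 9.20 to 17.0 on all arrays, under the medians, unlike Cct6a.

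Of 18 actin and tubulin genes measured, which encode the main clients, 1 rose, a share near that of all genes, and the median log2 difference was 0.03. Without adjustment 5 were higher and 4 lower at a p under 0.05, where 14.7% and 7.35% of all genes were. The groups did not overlap for 5 higher and 3 lower genes, where 17.0% and 11.2% of all genes showed that. The brightest genes are named for their level, outside the rule for named genes. Of these Tuba1a, Tubb2b and Tubb2a were lower, by differences of -0.99, -0.75 and -0.82 (limma adjusted p = 0.121, 0.124 and 0.186). Actb, Tubb5, Actg1 and Actr3 had differences of -0.15, -0.02, 0.07 and -0.003. The gene that rose was Actl6a, an actin-related subunit of chromatin remodelling complexes, at 2.15-fold (limma adjusted p = 0.02002), which ended when all its probe sets were averaged (0.0722) or without negative array 2 or positive array 1 or 3 (0.0652, 0.0627 and 0.0686). Tubb3, a beta tubulin, had a difference of 1.55 (limma adjusted p = 0.0956), and Tube1, the epsilon tubulin, one of -1.55 (0.0751). With the array number as a block 4 of the list rose, Tubb3 among them (adjusted p = 0.0287). None of 7 tubulin folding cofactors passed. Without adjustment 3 higher and 1 lower had a p under 0.05, where 14.7% and 7.35% of all genes had. Arl2, a small GTPase that binds cofactor D, and Tbce, cofactor E, differed by 0.89 and 0.76 (limma adjusted p = 0.141 and 0.144).

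Of 19 WD40 proteins and other candidate clients 3 rose, at a median of 0.25. The mitotic kinase gene Plk1 rose 4.68-fold, the cyclin E gene Ccne1 3.27-fold and Telo2, which stabilises kinases of the PI3K-related family, 1.85-fold (limma adjusted p = 0.0471, 0.0479 and 0.0401). All 3 calls ended on centred arrays (0.0606, 0.0676 and 0.0786) and with quantile normalisation (0.0696, 0.0815 and 0.109), and those of Ccne1 and Telo2 with a trended robust variance (0.0505 and 0.0817). Those of Ccne1 and Telo2 also ended without any 1 of the arrays, and that of Plk1 without any 1 except negative array 1. Cdc20, an activator of the anaphase-promoting complex and the textbook WD40 client, stood at 371, 158 and 62.05 on the negative and 1401, 800 and 685 on the positive arrays. Its difference was 2.57 (limma adjusted p = 0.0791, and 0.0311 with the array number as a block). It also passed without negative array 1 (0.0327) and with averaged probe sets (0.0473). Plk1, Ccne1 and Cdc20 are also cell cycle genes, and the cell cycle list differed between the groups as given above. Smarcb1, a core subunit of SWI/SNF remodelling complexes, had a difference of 0.85 (0.113), and it passed with averaged probe sets (0.0499).

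In the HSP70 cycle 3 of 21 rose. Hspa4, an HSP110-type exchange factor, rose 1.65-fold (limma adjusted p = 0.0396), from 1522, 1750 and 1949 to 2867, 2775 and 2936. The exchange factor genes Hspbp1 and Bag2 rose 2.72-fold and 3.92-fold (0.0466 and 0.0116), Bag2 from a mean of 32.8, at the array median. With the array number as a block Hspa4 did not pass (0.0573), and Hspa14, a ribosome-bound HSP70, did (0.0413, against 0.055 without it). On centred arrays Hspa4 (0.0795) and Hspbp1 (0.064) did not pass, nor Hspa4 with averaged probe sets (0.220), and each lost its call without any 1 array except negative array 3. Hspbp1 did not pass with quantile normalisation (0.0725) or a trended robust variance (0.0524) either. With single arrays left out, Bag2 lost its call without positive array 2 and with no other (0.0621). Bag3, another BAG domain gene, had a difference of 1.096 with overlapping groups (0.402).

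In the HSP90 cycle 3 of 13 measured genes rose, at a median of 0.77. The immunophilin gene Fkbp4 rose 2.72-fold (limma adjusted p = 0.0225), from 285, 429 and 311 to 1107, 854 and 809. Ruvbl1 and Ruvbl2, the paired ATPases of the R2TP cochaperone, rose 1.84-fold and 2.03-fold (0.0261 and 0.0310), and on centred arrays they had adjusted p of 0.0536 and 0.0522. Fkbp4 lost its call without negative array 3 or any positive array, Ruvbl1 without any 1 array, and Ruvbl2 without any 1 except negative array 1. Rpap3, which links R2TP to HSP90, had a difference of 1.496 (0.0939). With the array number as a block it passed (0.0267), and 5 of the list did in all. Unc45a, a myosin chaperone, had a difference of -1.16 (0.142), which turned to 0.05 without probe sets that may match several transcripts. Of 6 heat shock factors and small heat shock proteins 1 rose: Hspb6, dim at 29.5 to 43.03 on the negative and 72.95 to 99.8 on the positive arrays, at 2.31-fold (limma adjusted p = 0.0296, and 0.0534 with the array number as a block). That call was kept without negative array 1 and lost without any other array. The transcription factor gene Hsf2 and the small heat shock gene Hspb1 had differences of 1.12 and -0.21 (0.450 and 0.541).

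**Figure D5:**
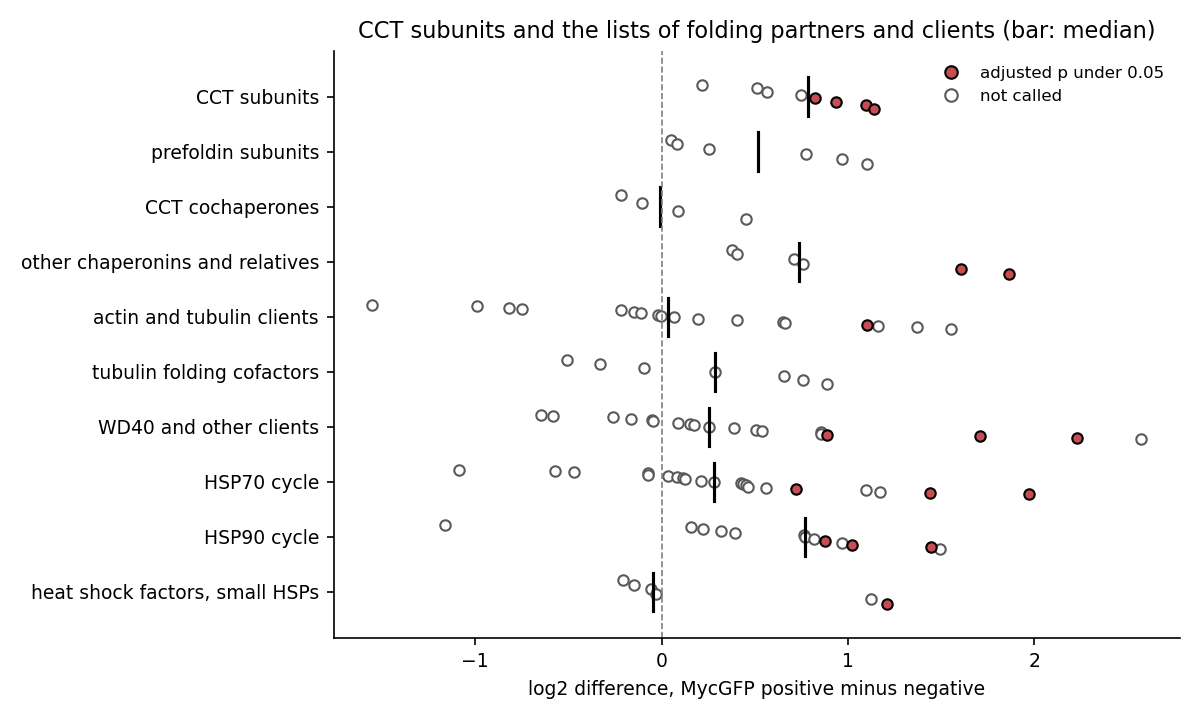
Log2 difference, MycGFP positive minus negative (x axis), of the 8 CCT genes and of each measured gene on 9 lists of partners and clients (y axis), with red points at an adjusted p under 0.05 and a bar at each median. The CCT genes all lie between 0.22 and 1.14, while the actin and tubulin genes run from -1.55 to 1.55 around a median of 0.03.

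Genes with the array profile most like the CCT mean were found by root mean square distance over the 6 arrays, in log2 units, among 10329 genes above the median intensity. The 8 subunits themselves lay at distances of 0.09 (Cct5) to 0.30 (Cct2) from their own mean, and the median over the genes searched was 0.49. The nearest were Lcmt1, which methylates the catalytic subunit of PP2A, at 0.0416, and Park7, a redox-sensitive chaperone gene, at 0.0421. Psmc4, an ATPase of the proteasome cap, followed at 0.0504, and Eif1ax, a translation initiation factor, at 0.0505. Chka, a choline kinase, and Malsu1, a mitochondrial ribosome assembly factor, lay at 0.0713 and 0.0715. These 6 had log2 differences of 0.70 to 0.82, near the CCT median because the search selects for it, and 33 genes lay within a distance of 0.1. Apart from Chka (limma adjusted p = 0.0517) they passed. The search favours that too, since it picks genes with the same group difference and little spread inside the groups, so the calls are no separate result. Each of these calls ended without negative array 2 or any positive array. Those of Lcmt1 and Park7 also ended on centred arrays (0.0549 and 0.0663). Park7 did not pass with the array number as a block (0.0525), nor Lcmt1 with quantile normalisation (0.0505) or a trended robust variance (0.0727). With averaged probe sets Chka turned to -0.15, and Malsu1 did not pass (0.138).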

How the data were processed

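Per the labels' protocols, spleen mononuclear cells of congenic recipients were sorted by mCherry and GFP, and 5 ng of total RNA per sample was amplified before biotin labelling, which adds noise to dim genes. The deposited values are linear intensities per probe set, made by the authors with RMA, as the submitters' processing notes list it. No source used here gives its version. They ran from 2.89 to 19948 without the 64 control probe sets, and log2 was taken first. No detection calls were used. Precision is limited by the number of arrays.

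Of 45101 probe sets 34945 had 1 gene symbol in the platform annotation, 932 several and 9160 none. Symbols were updated by Entrez identifier through RefSeq's table of GRCm38.p6 (34741 matched). The probe set with the highest mean log2 value stood for a gene. Titles gave the groups. The main test was limma 3.58.1 under R 4.3.3 (lmFit, eBayes, two-sided, Benjamini-Hochberg over all 18193 genes, threshold 0.05, 4 residual and 2.17 prior degrees of freedom), and a separate fit covered all 34945 probe sets. A gene rose, or was called, if it passed that threshold. Log2 differences are MycGFP positive minus negative, folds are their antilog, and intervals are 95% from limma. The fit was tested on simulated data.

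The members and lists were chosen with earlier results of these data known. The rule for named genes took all 8 members, the prefoldin, cochaperone and chaperonin lists whole, and, of each other folding list, up to 5 called genes and the 2 largest uncalled differences. It also took Myc and the 6 genes nearest to the CCT profile. Listed genes without a single-symbol probe set, 3 on the actin and tubulin list, 3 on the HSP90 list and 1 among heat shock factors, were not analysed here.

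Arrays of the same number, after subtracting group means, correlated across genes with r = 0.38, 0.21 and 0.39, and those of different number with r = -0.32 to -0.03. Deviations within a group cancel by construction, so the negative values follow in part from the positive ones and are no separate evidence. No label says what a number marks. By these correlations the numbers were taken to pair the arrays, and values fitted with the number as a block are given where they change a call. Alternatives were the block, arrays left out singly or by number, all probe sets averaged, probe sets ending in _x_at or _s_at removed, dim genes removed, median centring, quantile normalisation and a trended robust variance.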

Additional observations from a re-analysis of the deposited data

How the results depend on the processing

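With the array number as a replicate block 4 CCT genes and 7 CCT probe sets passed, the same counts as without it, and the call of no CCT gene changed. The block moved the count of called genes to 1 for prefoldin, 4 for actin and tubulin, 5 for the HSP90 cycle and 0 for heat shock factors. Over the other settings with all arrays, 3 to 5 CCT genes passed, with Cct4 called when probe sets were averaged (adjusted p = 0.0287) and with a trended robust variance (0.0473).

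Median centring moved the median difference of all genes from 0.01 to -0.14 and gave 502 genes higher and 381 lower, so 56.9% of the calls were higher, against 75.3%. Quantile normalisation gave 510 higher, 57.1% of the calls. The 8 CCT genes stayed above 0 in both, with medians of 0.63 and 0.74. Of the WD40 and other clients 0 passed in either, 1 with a trended variance, and 5 with averaged probe sets or without those ending in _x_at or _s_at. On centred arrays 1 gene rose and 1 fell in the HSP70 cycle, and 1 rose in the HSP90 cycle. With averaged probe sets 0 of the actin and tubulin genes passed.

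Leaving out 1 array gave 0 to 862 genes higher and 0 to 238 lower, 0 to 2 CCT genes and 0 to 5 CCT probe sets. Leaving out both arrays of a number gave 0 to 310 genes higher, 0 to 42 lower, 0 CCT genes and 0 to 1 CCT probe sets. With 1 array left out the ranges were 0 to 2 for other chaperonins, 0 to 2 higher and 0 to 1 lower for actin and tubulin, 0 to 1 for tubulin cofactors, 0 to 2 for WD40 and other clients, 0 to 3 for the HSP70 cycle, 0 to 4 for the HSP90 cycle and 0 to 1 for heat shock factors.

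Small differences turned sign. On centred arrays Pfdn5 was at -0.0646, Vbp1 at -0.0971 and Txndc9 at -0.0598. With 1 array left out the ranges were -0.0264 to 0.151 for Pfdn5, -0.0568 to 0.120 for Vbp1, -0.0221 to 0.3125 for Txndc9 and -0.401 to 0.423 for Atpsckmt. With both arrays of a number left out they were -0.0111 to 0.194, -0.0341 to 0.133, -0.0677 to 0.365 and -0.399 to 0.495, and -0.0303 to 0.785 for Pdcl3 and -0.0075 to 0.4004 for the Cct4 probe set 1456572_x_at. With averaged probe sets Atpsckmt was at 0.0646 and Chka at -0.1538, and without _x_at and _s_at probe sets Unc45a was at 0.0498. The cause was not tested.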
